A study of Mus musculus with 2 samples.

Results

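Collagen and laminin genes encode the chains of the extracellular matrix. Their RNA was described here in polyA RNA sequencing of the testis of 1 adult male mouse of the inbred C57BL/6J strain, 10 weeks old. The members were the protein-coding genes whose GENCODE name begins with Col, a number, a and a further number, or with Lama, Lamb or Lamc and a number. This rule, which uses names and no measured value, took 56 of the 43346 genes in the tables. It found 44 collagen genes, 11 laminin genes and Col4a3bp, a ceramide transfer protein whose name fits the pattern and which was kept out of all sums over chains. The animal gave 2 libraries, labelled technical replicates 1 and 2, and the labels name no allele, transgene or treatment. Replicate 2 was made later, in 2015, and the labels do not say which steps were repeated for it. There is therefore no comparison between animals or conditions, and p-values and intervals measure only the reads of these libraries.

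Collagens are trimers with stretches built of amino acid triplets, each with a glycine. Fibrillar collagens, such as types I, III and V, form the long fibrils of connective tissue. Type IV collagen instead forms an open network that, with the laminins (trimers of an alpha, a beta and a gamma chain), nidogens and perlecan, makes up the basement membrane. In the testis such a membrane underlies the Sertoli cells and spermatogonia of each seminiferous tubule, with peritubular myoid cells and fibrillar collagen around it. Blood vessels have basement membranes as well. In bulk tissue, fewer cells of a type and less RNA per cell cannot be told apart.

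The glycine repeat is visible in the coding sequence, since all glycine codons are GGN. The following stretches are each 90 bases of coding sequence, from the first bases of the longest such run in GENCODE M21 transcripts (GRCm38). They are shown because their base composition recurs in the library comparison. Fibrillar and network-forming chains differ in the length of the run, given after the stretches, which 90 bases cannot show. Capitals mark the GG of the glycine codons.
Col1a1: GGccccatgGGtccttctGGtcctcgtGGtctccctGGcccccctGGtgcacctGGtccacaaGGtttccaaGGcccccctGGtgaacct
Col2a1: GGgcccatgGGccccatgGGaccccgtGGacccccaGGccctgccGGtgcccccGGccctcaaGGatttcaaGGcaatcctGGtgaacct
Col3a1: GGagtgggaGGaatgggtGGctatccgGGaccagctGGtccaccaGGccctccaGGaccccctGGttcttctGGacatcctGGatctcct
Col4a3: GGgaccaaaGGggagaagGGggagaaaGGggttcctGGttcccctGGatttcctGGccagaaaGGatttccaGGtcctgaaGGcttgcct
GC content was 66.7% in the Col1a1 stretch, 70.0% in Col2a1, 63.3% in Col3a1 and 57.8% in Col4a3. In the 11 fibrillar genes the longest unbroken run held 216 to 344 such triplets (median 338). In the 6 type IV genes, whose repeat is interrupted, it held 39 to 66, and in the 11 laminins, which have no collagen repeat, 2 or 3.

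The 6 type IV genes lie in 3 head-to-head pairs, and their levels are compared further on. Col4a1 and Col4a2 (chromosome 8) start 21 bases apart with overlapping first exons, Col4a4 and Col4a3 (chromosome 1) start 72 bases apart, and Col4a6 and Col4a5 (X chromosome) start 1309 bases apart. The bases from start to start of the closest 2 pairs are given on the plus strand of GRCm38.p6, from RefSeq promoter windows, with the start base of each gene in capitals.
Col4a1 and Col4a2, chr8:11312805-11312826: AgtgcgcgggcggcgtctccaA
Col4a4 and Col4a3, chr1:82586849-82586921: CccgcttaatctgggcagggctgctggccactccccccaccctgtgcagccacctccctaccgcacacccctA
The Col4a1 and Col4a2 stretch contains the letters GGGCGG, known as a GC box. Counting both strands, GGGCGG was found in 59.1% of the 44 promoter windows of 40 members (250 bases before to 50 after the start), and in 35.7% of all 32851 such windows. CCAAT was found in 31.8% of member windows and 37.4% of all windows, and TATAAA in 11.4% and 13.6%.

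The tables held 31995377 expected counts (estimated reads) in replicate 1 and 20675551 in replicate 2, so replicate 1 is the deeper library. A gene with no count may still have had up to 3, equal to 0.0938 CPM (counts scaled to the library total) in replicate 1 and 0.145 CPM in replicate 2, for counting error only. The libraries differed beyond sampling noise, with a chi-square of 577 per degree of freedom in their counts of 18581 genes. Each level below is therefore given for replicate 1 and then replicate 2. Levels are in TPM, an abundance scaled for depth and for the length of the transcripts, so that genes can be compared within a library.

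The 55 collagen and laminin chains summed to 140.1 TPM in replicate 1 and 889 TPM in replicate 2, which is 0.0140% and 0.0889% of all TPM. With Col4a3bp the 56 members summed to 220.1 and 931 TPM. 30 of the 56 members reached 1 TPM in both libraries (53.6%), and 54.6% of the 21474 protein-coding genes did. A further 13 reached it in replicate 2 only, 1 (Col25a1) in replicate 1 only, and 12 in neither. Only 4 members reached 10 TPM in both libraries: Col4a3bp, Col3a1, Col1a2 and Col22a1. The median of the members' mean levels was 3.17 TPM, against 3.92 TPM over protein-coding genes, so a typical member lay near a typical protein-coding gene. The level was higher in replicate 2 for 42 members and higher in replicate 1 for 12.

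**Figure D1:**
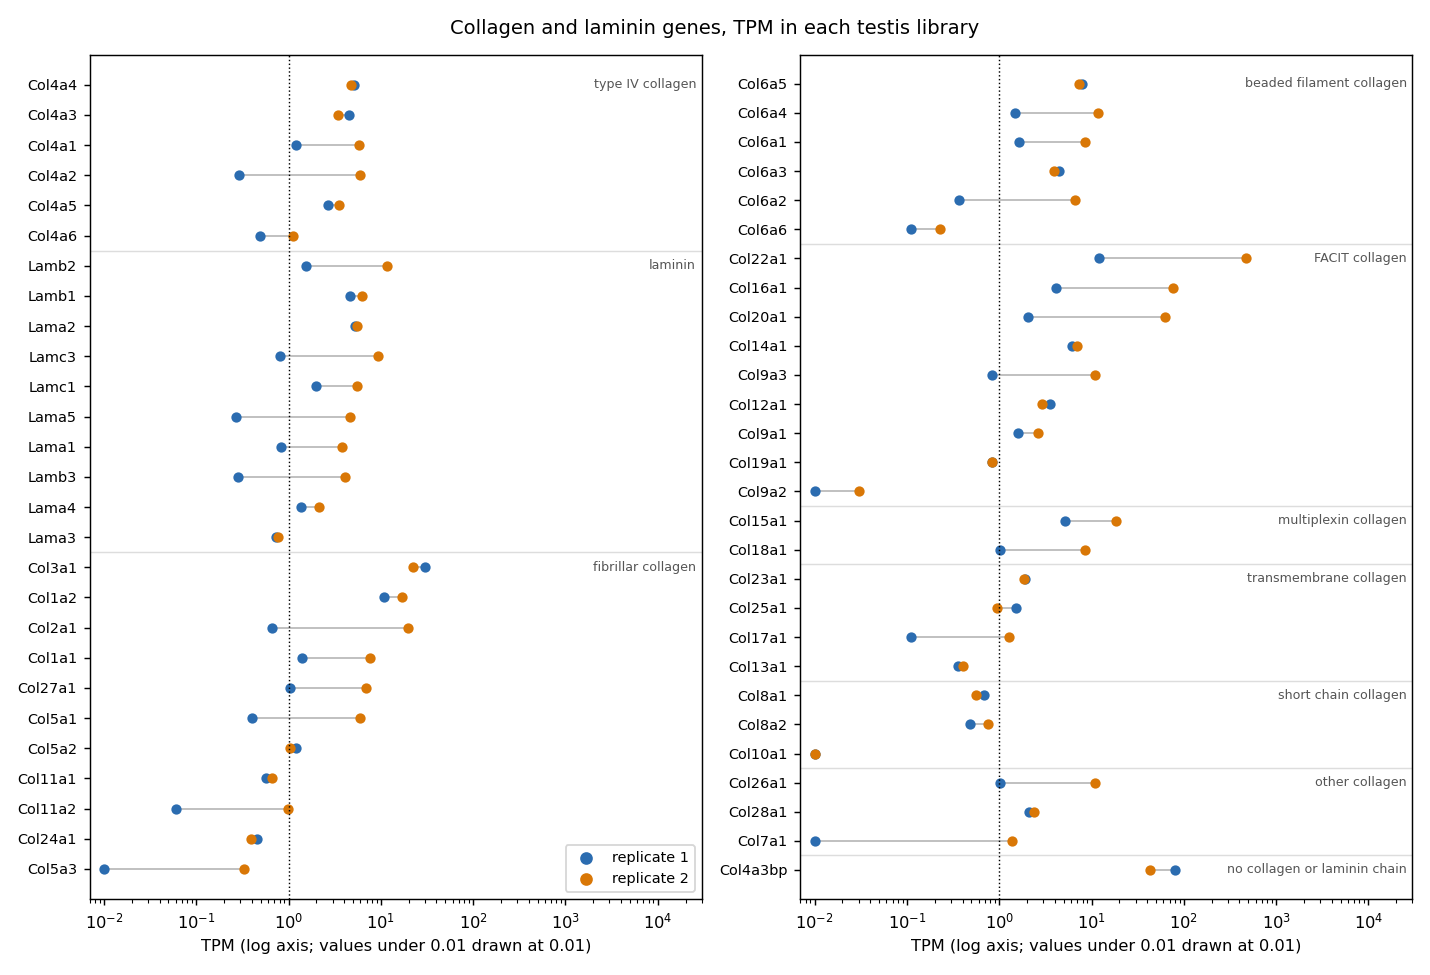
Level of 55 of the 56 members in each library, in TPM on a log axis, grouped by class; blue points are replicate 1, orange points replicate 2, and the dotted line marks 1 TPM. Col22a1 spans 12.0 to 476 TPM, whereas Col4a4, Lama2 and Col6a5 lie at nearly the same level in both libraries.

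Among the type IV chains, all 6 were measured, but they did not move as a group. Col4a4 was at 5.07 and 4.80 TPM (1091 and 653 counts). Its partner Col4a3 was at 4.57 and 3.40 TPM (830 and 386 counts). These chains form, with Col4a5, the specialised network known from the kidney glomerulus and also present around seminiferous tubules. Col4a5, on the X chromosome, was at 2.67 and 3.50 TPM, and Col4a6 at 0.49 and 1.12 TPM. The widely used pair behaved differently: Col4a1 was at 1.20 and 5.80 TPM (168 and 511 counts), and Col4a2 at 0.29 and 5.99 TPM (36 and 458 counts). In replicate 1, Col4a4 and Col4a3 were thus the highest type IV chains, and in replicate 2 Col4a2 and Col4a1 were. The order of the type IV chains therefore depended on the library.

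The alpha chains of laminin give each trimer its receptor-binding end. Lama2, known from muscle basement membranes, was at 5.28 and 5.52 TPM (1068 and 655 counts), the highest alpha chain in both libraries. Lama1 was at 0.82 and 3.79 TPM (165 and 484 counts). Lama5, the widespread alpha chain of adult epithelia and vessels, was at 0.27 and 4.66 TPM, from 7 and 248 counts. Most of this level rests on short transcripts: the full-length one held 0.02 and 1.53 TPM, from 4.02 and 234.2 of these counts. Lama4, a chain of vessels and other mesenchymal tissue, was at 1.35 and 2.14 TPM, and Lama3, an epithelial chain, at 0.74 and 0.76 TPM. The lowest alpha chain was Lama5 in replicate 1 and Lama3 in replicate 2.

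Among the beta and gamma chains, Lamb1 was at 4.59 and 6.24 TPM (305 and 367 counts). Lamb2 was at 1.55 and 11.7 TPM, from 28 and 730 counts, and was the highest laminin in replicate 2. Lamb3, a partner of Lama3 in epithelial laminin, was at 0.28 and 4.04 TPM (8 and 211 counts). The common gamma chain Lamc1 was at 1.99 and 5.55 TPM (184 and 326 counts). Lamc3 was at 0.81 and 9.22 TPM (100 and 715 counts). For the beta and gamma chains, too, the order reversed: Lamb1 and Lamc1 led in replicate 1, and Lamb2 and Lamc3 in replicate 2.

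The fibrillar class was led by types III and I. Col3a1, the chain of type III collagen in soft tissue, was at 29.7 and 22.5 TPM (1653 and 1155 counts). Col1a2, a chain of type I collagen, was at 10.9 and 16.9 TPM (1146 and 1179 counts). Col1a1, which supplies most chains of the type I trimer, was at 1.40 and 7.67 TPM (174 and 604 counts), below Col1a2 in both libraries. These 3 genes held 90.5% of the fibrillar TPM in replicate 1 and 56.7% in replicate 2. The largest difference within the class was in Col2a1, the chain of cartilage fibrils, at 0.66 and 19.8 TPM (67 and 1261 counts). The type V and XI chains are minor components that set fibril diameter. Col5a1 was at 0.40 and 5.89 TPM, Col5a2 at 1.20 and 1.04 TPM, and Col5a3 at 0.01 and 0.33 TPM (1 and 27 counts). Col11a1 was at 0.57 and 0.66 TPM and Col11a2 at 0.06 and 0.99 TPM, under 1 TPM in both libraries. Of the remaining fibrillar chains, Col27a1 was at 1.04 and 6.93 TPM and Col24a1 at 0.46 and 0.39 TPM.

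Type VI collagens form beaded filaments near cells. Col6a5 was at 7.91 and 7.37 TPM, Col6a4 at 1.47 and 11.9 TPM, and Col6a1 at 1.65 and 8.40 TPM. The usual trimer partners of Col6a1 are Col6a3, at 4.41 and 3.93 TPM, and Col6a2, at 0.37 and 6.67 TPM. The levels of Col6a5 and Col6a3 rest mostly on short transcripts: those of 1000 bases or more held 2.35 and 2.41 TPM of Col6a5, and 0.66 and 2.0 TPM of Col6a3. Col6a6 was at 0.11 and 0.23 TPM. The multiplexins are found at basement membrane zones, and their cleaved ends include endostatin, from type XVIII. Col15a1 was at 5.19 and 18.4 TPM (189 and 462 counts) and Col18a1 at 1.01 and 8.42 TPM (29 and 566 counts).

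The FACIT collagens, which attach to fibril surfaces or to membrane zones, held the highest chain in replicate 2 and by mean level. In replicate 1 the highest chain was Col3a1, at 29.7 TPM. Col22a1, known from tissue junctions such as that of muscle and tendon, was at 12.0 and 476 TPM (197 and 5127 counts). It alone held 8.57% of the TPM of all collagen and laminin chains in replicate 1 and 53.6% in replicate 2. Col16a1 was at 4.13 and 76.9 TPM (77 and 2081 counts), and Col20a1 at 2.05 and 62.9 TPM (43 and 1004 counts). All 3 stood far higher in replicate 2. Col14a1 (6.07 and 6.88 TPM), Col12a1 (3.53 and 2.88 TPM) and Col9a1 (1.58 and 2.64 TPM) were close between the libraries. Col9a3 was at 0.84 and 10.8 TPM, Col19a1 at 0.83 in both, and Col9a2 had 0 and 1 counts.

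The remaining chains were low. Of the transmembrane collagens, Col23a1 was at 1.92 and 1.85 TPM, from 53 and 139 counts. Its near-equal levels rest on a transcript of 521 bases, at 1.56 TPM in replicate 1 from 11.32 reads and 0 TPM in replicate 2. The Col23a1 transcript of 5658 bases was at 0.35 and 1.85 TPM. By counts, Col23a1 was called higher in replicate 2 in the library comparison below (log2 ratio 1.72). Col25a1 was at 1.51 and 0.94 TPM, and Col17a1, a hemidesmosome component, at 0.11 and 1.26 TPM, with Col13a1 at 0.36 and 0.40 TPM. Col26a1 was at 1.03 and 10.9 TPM, Col28a1 at 2.08 and 2.39 TPM, and Col7a1, the anchoring fibril chain of skin, at 0.01 and 1.36 TPM (1 and 53 counts). The short chain collagens Col8a1 (0.68 and 0.56 TPM) and Col8a2 (0.48 and 0.76 TPM) stayed under 1 TPM. Col10a1, a chain of growth plate cartilage, had 0 counts in both libraries. By contrast Col4a3bp, which is not a matrix gene, was at 80.0 and 42.8 TPM (7033 and 2320 counts) and was the highest member in replicate 1.

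Basement membrane genes were then set against fibrillar genes within each library. The 17 type IV and laminin genes summed to 32.3 TPM in replicate 1 and 79.6 TPM in replicate 2, and the 11 fibrillar genes to 46.5 and 83.2 TPM. Basement membrane over fibrillar was therefore 0.695 in replicate 1 and 0.957 in replicate 2. On the log2 scale this is -0.53 and -0.06, with a mean of -0.29 ± 0.33 (SD, n = 2 technical libraries). The mean lies within its own spread of 0, so neither class was higher beyond the difference between the libraries. The side depended on how the classes were summed. Without the highest gene of each class (Lamb2 and Col3a1 by mean level) the mean log2 ratio was 0.52, and on expected counts with no length scaling it was 0.33. The 6 type IV genes alone summed to 14.3 and 24.6 TPM, below the sum of the 11 fibrillar genes in both libraries. These ratios of TPM sums, 0.308 and 0.296, were nearly equal. Per gene the order depended on the library, with a median of 1.935 and 4.15 TPM for type IV and 0.66 and 5.89 TPM for fibrillar genes. The laminins summed to 18.0 and 55 TPM, so on TPM over all transcripts the change in the overall ratio lay in them. Type IV over fibrillar was not stable on other measures. On expected counts, type IV genes held 2399 and 2329, laminins 2141 and 3951, and fibrillar genes 3456 and 5249. In transcripts of 1000 bases or more, type IV genes held 14.26 and 23.65 TPM, laminins 15.59 and 45.65, and fibrillar genes 28.67 and 75.04. Where the change lay therefore depended on the measure.

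**Figure D2:**
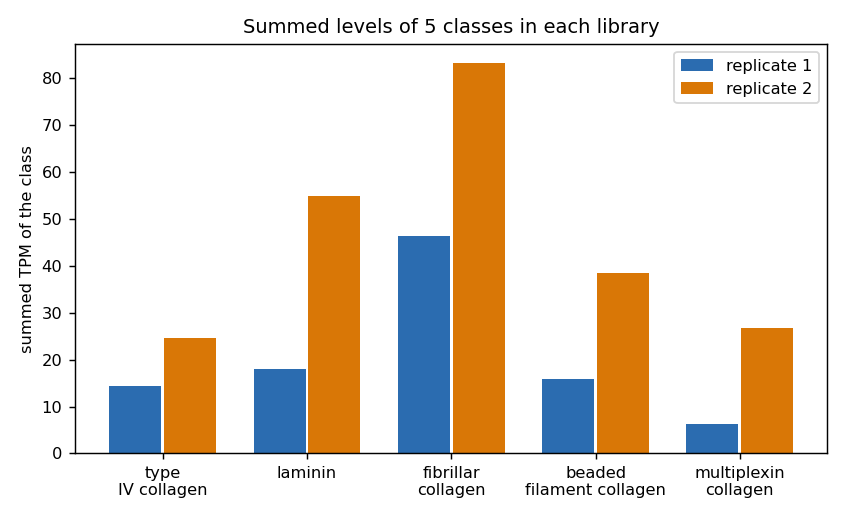
Summed TPM of the genes of 5 classes in replicate 1 (blue) and replicate 2 (orange), with the axis starting at 0. Among these 5 classes, type IV, laminin, fibrillar, beaded filament and multiplexin, fibrillar genes had the highest sum in both libraries (46.5 and 83.2 TPM); the FACIT class, at 31.0 and 640.1 TPM, is not drawn, and laminins summed to 18.0 and 55 TPM.

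Chains that share a trimer, or that replace each other in it, were compared in 12 pairs within each library, as log2 of the ratio of their levels per length. A pair was called different where the exact (Clopper-Pearson) 95% interval excluded 0 on the same side in both libraries. Of the 12 pairs, 6 were called so. Col1a1 was lower than Col1a2, at -2.97 (interval -3.21 to -2.74) in replicate 1 and -1.14 (-1.29 to -1.0) in replicate 2. Col4a3 was slightly lower than Col4a4, at -0.15 (-0.28 to -0.02) and -0.50 (-0.68 to -0.31). Col4a5 was higher than Col4a6 by 2.46 and 1.65, and Col6a1 higher than Col6a2 by 2.16 and 0.33. Lama1 was lower than Lama2 (-2.69 and -0.54), and so was Lama5 (-4.30 and -0.24). On counts without length scaling, Lama5 over Lama2 was -7.25 and -1.40. Thus Col4a4, Col4a5, Lama2 and Col1a2 were the higher chain of their pair in each library.

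In 5 pairs the libraries gave opposite answers, each with an interval that excluded 0. Col5a1 over Col5a2 was -1.60 in replicate 1 and 2.50 in replicate 2. Col6a1 over Col6a3 was -1.42 and 1.10, and Col11a1 over Col11a2 was 3.37 and -0.59. Lamb1 over Lamb2 was 1.57 and -0.91, and Lamc1 over Lamc3 was 1.29 and -0.73. For these pairs no order of the chains can be given from this animal. Col4a1 over Col4a2, the pair with overlapping starts shown above, was 2.07 (1.55 to 2.63) in replicate 1 and -0.05 (-0.23 to 0.14) in replicate 2, where no difference was detectable. Without length scaling, Col6a1 over Col6a3 and Col11a1 over Col11a2 were no longer opposite, and the number of pairs called remained 6.

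**Figure D3:**
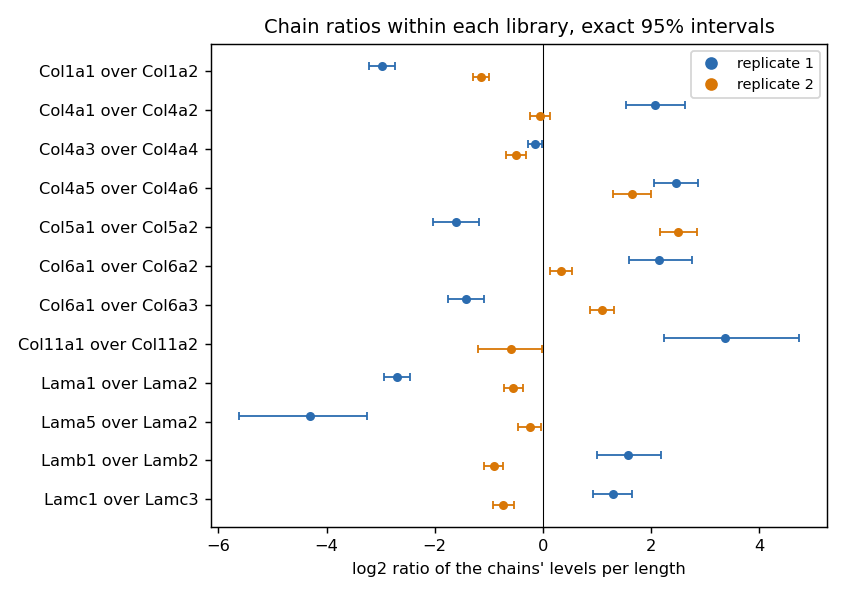
Log2 ratio of the levels per length of 12 chain pairs in replicate 1 (blue) and replicate 2 (orange); bars are exact 95% intervals for counting error only, and the line marks equal levels. Both points of Col1a1 over Col1a2 lie left of 0, whereas those of Col5a1 over Col5a2 (-1.60 and 2.50) lie on opposite sides.

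The counts of 54 members with a mean of 10 counts or more were compared between the libraries by an exact two-sided binomial test with TMM-scaled library sizes, adjusted by Benjamini-Hochberg over 18581 genes. Calls required a ratio of at least 2 and an adjusted p under 0.05. By this rule 29 members were higher in replicate 2, where the background over all genes tested was 32.1%, and 2 (Col4a3bp and Col25a1) were higher in replicate 1, where it was 23.9%. The members' median log2 ratio of replicate 2 over replicate 1 was 1.37, against -0.0042 over all genes tested. By class, 7 of 11 laminins, 6 of 11 fibrillar genes, 4 of 8 FACIT genes, 3 of 6 beaded filament genes, 2 of 6 type IV genes and 2 of 2 multiplexins were called higher in replicate 2.

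The differences were large for the chains named above. On the log2 scale, Col22a1 was higher in replicate 2 by 5.04, Col16a1 by 5.09, Lamb2 by 5.02 (adjusted p = 5.25e-215, exact binomial test) and Lama5 by 5.39 (adjusted p = 8.66e-77, exact binomial test). Col4a2 was higher by 3.99 (adjusted p = 9.09e-117, exact binomial test) and its neighbour Col4a1 by 1.94. In contrast Col4a3 (-0.77), Col4a4 (-0.40), Lama2 (-0.37), Col3a1 (-0.18) and Col1a2 (0.38) stayed within a ratio of 2.

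The library ratio of the members followed the GC content of their transcripts. Over 54 members, Pearson's r between the log2 ratio and the GC content of the most abundant transcript was 0.77 (Spearman's rho 0.80), and over all 18516 tested genes of known GC content it was 0.82 (0.89). These are descriptions across genes that all share the same 2 libraries. Of the 23 members at 55% GC or more, 22 were called higher in replicate 2 (95.7%), and 91.3% of all tested genes in that range were. Of the 15 members between 50% and 55%, 5 were called so (33.3%, against 47.8% of all genes). Of the 16 under 50%, 2 were called higher in replicate 2 (12.5%, against 2.62% of all genes) and 2 higher in replicate 1 (12.5%, against 42.8% of all genes). Median GC content was 53.7% for the members and 49.1% for all tested genes.

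**Figure D4:**
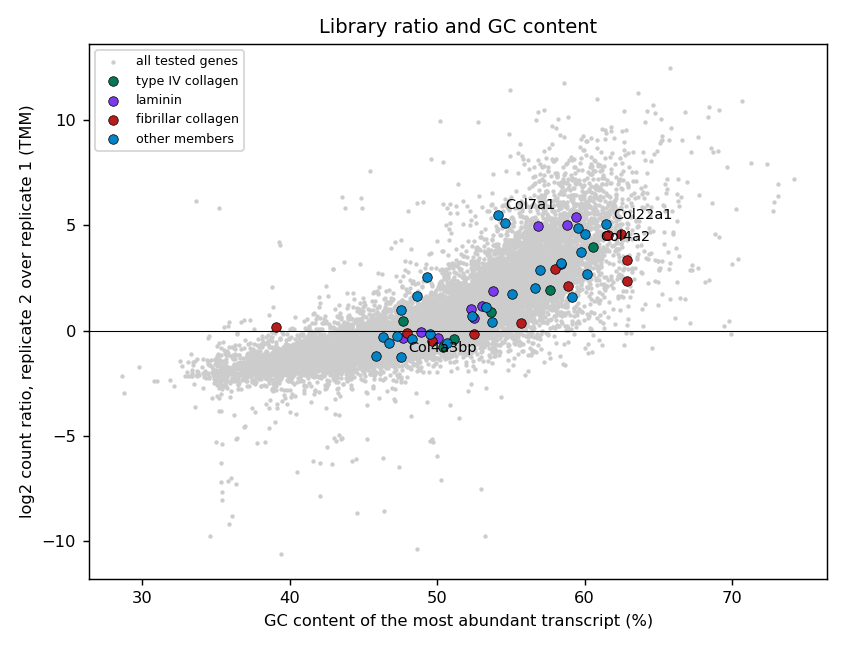
Log2 count ratio of replicate 2 over replicate 1 (TMM scaled) against the GC content in percent of each gene's most abundant transcript; grey dots are all tested genes and coloured points the 54 tested members by class. The members lie within the cloud of all genes and rise with GC content, from a median of -0.20 under 50% GC to 3.20 at 55% or more.

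When each gene was instead compared with the median of its GC bin (100 bins of tested genes), 9 members were higher in replicate 2, with a background of 10.9%, and 10 higher in replicate 1, with a background of 8.86%. The members' median log2 ratio then turned to -0.39. With GC content weighted by the reads of each transcript, 5 members were higher in replicate 2 (background 9.42%) and 15 in replicate 1 (background 8.14%), so which members pass depends on how GC content is assigned. Of the 29 members first called higher in replicate 2, 7 remained so, 16 were no longer called and 6 were called higher in replicate 1. Those that remained in replicate 2 were Col7a1, Col16a1, Col6a4, Col15a1, Lamb3, Lama5 and Lamb2. The 3 laminins among them had GC-corrected log2 ratios of 1.77 (Lamb3), 1.26 (Lama5) and 1.17 (Lamb2). For Col7a1 the GC content used, 54.1%, was that of a 695-base transcript with 5.21 of 53 reads in replicate 2. Its full-length transcript is at 61.5%. For Col16a1 the GC content used, 54.6%, was that of an 833-base transcript. Its 4037-base transcript, with 72.9% of the gene's reads in replicate 2, is at 62.2%. For Col15a1 the GC content used, 48.7%, was that of a 1755-base transcript with 16.1% of its reads in replicate 2. Its 5172-base transcript, with 33.4% of them, is at 56.4%. For Col6a4 the GC content used, 49.3%, was that of a 1721-base transcript. Its full-length transcript, with 58.7% of its reads in replicate 2, is at 54.0%. Fibrillar chains moved the other way: 5 of 11 were called higher in replicate 1, namely Col27a1 (-2.85), Col1a2 (-1.98), Col11a2 (-1.87), Col1a1 (-1.71) and Col3a1 (-1.24), and Col24a1 was called higher in replicate 2 (1.79). The GC content used for Col24a1, 39.1%, was that of a 1777-base transcript, and its full-length transcript is at 51.0%. That used for Col27a1, 62.9%, was of a 3215-base transcript with 0% and 26.7% of its reads. The full-length transcript of Col27a1, with 66.7% and 45.8% of the reads, is at 59.4%. Col22a1, with the largest level difference, had a GC-corrected log2 ratio of -0.02. Its most abundant transcript has no sequence in M21, so that its GC content is that of the next most abundant. That transcript, of 659 bases and at 61.5% GC, had 5.58% and 19.7% of the gene's reads. The full-length transcript of Col22a1, with 30.5% and 23.7% of the reads, is at 52.3%.

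The transcript estimates show what the levels of several chains rest on. All 30 members detected in both libraries have more than 1 annotated transcript, and for 19 the leading transcript was the same in replicates 1 and 2. A short transcript gains a high TPM from few reads. For 9 of the 30 in replicate 1 and 5 in replicate 2, transcripts of 1000 bases or more held under 50% of the gene's TPM. Using such transcripts only, 23 members were detected in both libraries.

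Col22a1 (chr15:71795795-72034227, minus strand) is the main case. Its full-length transcript of 8809 bases and 64 exons was at 0.32 and 10.3 TPM. A transcript of 688 bases was at 9.66 and 210.4 TPM, one of 659 bases and 10 exons (chr15:71868881-71897616) at 1.08 and 153.7 TPM, and one of 1210 bases and 20 exons (chr15:71904728-71954374) at 0.95 and 101.8 TPM. The full-length transcript thus held 2.67% and 2.16% of the gene's TPM but 30.5% and 23.7% of its reads. The level of 476 TPM in replicate 2 therefore describes mostly short annotated fragments of the gene.

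Col16a1 and Col20a1 were similar. A Col16a1 transcript of 833 bases and 3 exons was at 3.89 and 30.1 TPM, and one of 4037 bases at 0.06 and 28.7 TPM. For Col20a1, a transcript of 633 bases was at 1.75 and 50.4 TPM and the longest, of 4189 bases, at 0.30 and 12.6 TPM. In Col3a1 the full-length transcript of 5564 bases was at 12.4 and 14.9 TPM, and a transcript of 737 bases, with 206 and 52.2 of the gene's reads, was at 17.3 and 6.84 TPM. The lower total of Col3a1 in replicate 2 lay in that short transcript. The low counts of Lamb2 in replicate 1 had the same feature: 9.03% of its TPM there was in transcripts of 1000 bases or more, against 82.2% in replicate 2, and its effective length was 835 and 4545 bases. Its log2 ratio to Lamb1 was accordingly more extreme in counts (3.45 for Lamb1 over Lamb2 in replicate 1) than per length (1.57). With transcripts of 1000 bases or more only, the log2 ratio of basement membrane over fibrillar genes was 0.06 in replicate 1 and -0.11 in replicate 2.

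**Figure D5:**
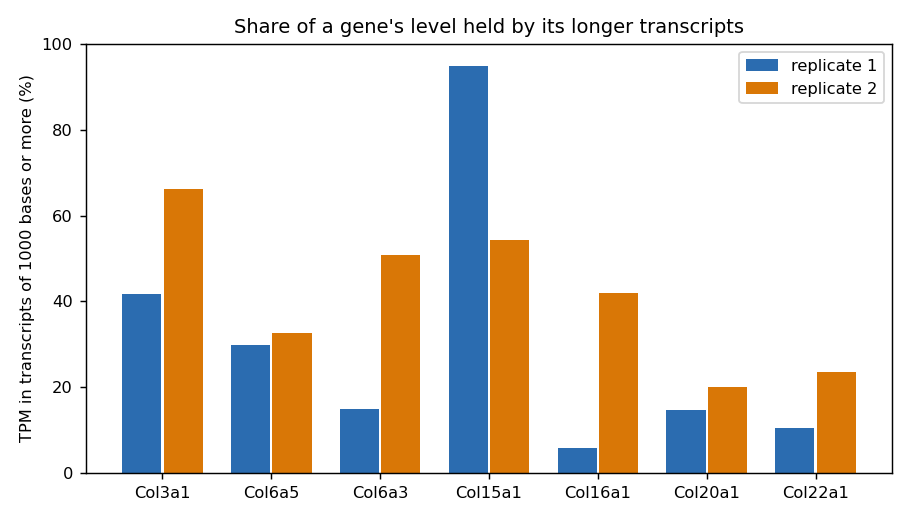
Percent of a gene's TPM that was assigned to transcripts of 1000 bases or more, for 7 collagen genes in replicate 1 (blue) and replicate 2 (orange). The share was 10.6% and 23.5% for Col22a1, and 41.8% and 66.2% for Col3a1.

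Exons of 17 members overlap those of another annotated gene, 14 of them on the opposite strand, and the sources used here do not say whether reads were counted by strand. Reads of such partners cannot be told apart there. The shared part exceeded 5% of a member's exon bases on the opposite strand for 3 genes: Lamc3 (6.27%), Col9a3 (6.07%) and Col4a3 (5.65%). In Col4a1 and Col4a2 the shared stretch was 22 bases.

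The genes that fold, process, bind or degrade these proteins were read from 6 lists. Their calls stand against the backgrounds given above, 32.1% of all tested genes higher in replicate 2 and 23.9% higher in replicate 1, and after the GC comparison 10.9% and 8.86%. Of 19 genes for folding and modification, 12 were detected in both libraries. Of 17 tested, 9 were called higher in replicate 2 and 2 higher in replicate 1, and after the GC comparison 1 and 3. The highest were Mia3, a cargo receptor for collagen export (129.1 and 96.0 TPM), the prolyl isomerase Ppib (24.8 and 84.1 TPM) and P4hb, a subunit of prolyl 4-hydroxylase (32.8 and 71.1 TPM). Of 14 genes for processing and cross-linking only 1 was detected in both, Pcolce, an enhancer of procollagen cleavage (9.93 and 66.5 TPM), followed by Loxl1 (0.51 and 6.33 TPM) and Adamts2 (0.94 and 2.19 TPM). In that list, of 13 tested, 8 were called higher in replicate 2 and 1 higher in replicate 1, and after the GC comparison 1 and 2.

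The 15 basement membrane partners summed to 252.7 and 430.3 TPM, most of it Sparc. Of these 15, 9 were detected in both libraries. Of 14 tested, 7 were called higher in replicate 2 and 0 higher in replicate 1, and after the GC comparison 3 and 1. They were led by Sparc, a collagen-binding glycoprotein (195.2 and 319.6 TPM), Egflam (20.9 and 37.5 TPM) and the nidogen Nid1 (11.8 and 9.55 TPM). Of 20 fibril partners, 14 were detected, with 8 of 20 tested called higher in replicate 2 and 3 in replicate 1, and after the GC comparison 5 and 1. Decorin (Dcn) was at 90.5 and 60.5 TPM, Comp at 1.11 and 129.0 TPM and Sparcl1 at 23.6 and 27.1 TPM.

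Of 18 receptors for collagen and laminin, 8 were detected in both libraries. Of 17 tested, 10 were called higher in replicate 2 and 4 in replicate 1, and after the GC comparison 3 and 0. Rpsa, a ribosomal protein also described as a laminin receptor, was at 18.0 and 168.5 TPM, and near-identical copies in the genome make its count uncertain. The integrin chains Itgb1 (57.2 and 29.1 TPM) and Itga1 (22.9 and 14.0 TPM) followed, both called higher in replicate 1. Of 19 matrix proteases and inhibitors, 7 were detected in both libraries. Of 15 tested, 7 were called higher in replicate 2 and 2 in replicate 1, and after the GC comparison 1 and 1. They were led by cathepsin L (Ctsl, 243.2 and 332.0 TPM), which Sertoli cells also express and which stands in their marker list, and the inhibitors Timp2 (59.8 and 106.1 TPM) and Timp3 (29.1 and 15.9 TPM). Over the 6 lists the median log2 ratio ran from 0.17 to 1.80, and after the GC comparison from -0.51 to 0.26.

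Markers of the cells that could supply these chains also differed between the libraries, and their part in the members' differences was not tested. The 7 peritubular myoid markers summed to 130.8 and 500.3 TPM, with 5 detected in both libraries. Of the 7, 6 were called higher in replicate 2 and 0 in replicate 1 (backgrounds 32.1% and 23.9%). After the GC comparison 3 of these markers were called higher in replicate 2 and 1 in replicate 1 (backgrounds 10.9% and 8.86%). They include smooth muscle actins, Acta2 at 9.63 and 58.5 TPM and Actg2 at 100.5 and 390.7 TPM. The 10 Sertoli markers summed to 1242 and 1551 TPM (9 detected, Amh at 0 in replicate 1), and the 7 Leydig markers to 533 and 2198 TPM (7 detected), of which Insl3 gave 83.2 and 1630.3 TPM. The 6 fibroblast and capsule markers summed to 114.5 and 80.3 TPM (4 detected, led by Dcn), the 6 endothelial markers to 7.33 and 14.2 TPM (4 detected) and the 6 macrophage markers to 49.4 and 70.9 TPM (3 detected). Germ cell markers, which the labelled tissue should contain, summed to 6180 and 20751 TPM (6 of 6 detected). The higher sum came from Prm1 (3011 and 10087 TPM) and Tnp1 (1008 and 9611 TPM), while Sycp3 (807 and 263 TPM), Ddx4 (692 and 319 TPM), Dazl (273 and 99.4 TPM) and Acrv1 (388 and 372 TPM) were lower in replicate 2. Of 6 epididymis markers, Lcn5 and Lcn8 had 0 counts in both libraries, and the sum of 59.5 and 23.1 TPM was mostly Crisp1 (53.8 and 19.3 TPM). The myoid, Sertoli, Leydig, germ cell, endothelial and macrophage sums were thus all higher in replicate 2, and the fibroblast and epididymis sums lower. Single markers did not all follow these sums. Of all tested genes, 32.1% and 23.9% were called higher in replicate 2 and replicate 1. Sertoli markers gave 5 and 0 of 10, Leydig 2 and 1 of 7, and germ cell 2 and 3 of 6. Endothelial markers gave 2 and 1 of 6, macrophage 3 and 1 of 6, and fibroblast 1 and 1 of 6. Of 3 epididymis markers tested, 0 and 3 were called.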

How the data were processed

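PolyA RNA-seq of 1 testis was deposited as a gene table and a transcript table for each of 2 technical libraries. Per the deposited notes, values were estimated on mm10 with annotation M4. The names of the aligner and of the estimating program were not given in the sources used here. Expected counts (estimated reads), TPM (scaled for effective length and depth), posterior mean TPM and FPKM are the authors' deposited values, as is the percent of a gene's level that each transcript holds. The deposited posterior SD of each count, a score without a fixed range, was read but supports no result. Such estimates divide reads between similar transcripts, so a short transcript can gain a high TPM from few reads.

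Names, positions and GC content came from GENCODE M21 (GRCm38), matched by identifier for 42462 of 43346 genes. Coordinates are 1-based. Entries that are no gene held 1.56e-05% and 0% of the counts. Expected counts were rounded, and the libraries were compared gene by gene with a two-sided exact conditional binomial test on TMM-scaled sizes (edgeR 4.0.16, factors 0.904 and 1.11), with 0.5 added to counts for log2 ratios. Benjamini-Hochberg adjustment ran over the 18581 genes whose mean was 10 counts or more. With 1 library of each replicate there is no residual spread, so no quasi-likelihood fit was made, and the test compares reads of these libraries. The test was checked on simulated counts drawn from a shared profile with set fold changes and sampling noise only. That simulation left out the broad difference between these libraries, so it is no check of the calls made here. The sources used here name no molecular identifiers, so intervals and the limit of 3 counts describe counting error and not independent molecules.

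All type IV, laminin and fibrillar genes were named, other members at a mean of 1 TPM or more, the 3 highest of each remaining class, and the 3 highest of each list, except for 1 member not reported here by name. Other low members named were chosen after their values were seen. The members and gene lists were chosen with earlier results of these data known. Restriction to transcripts of 1000 bases or more, and GC content weighted by reads, were chosen after seeing the data. R 4.3.3, DESeq2 1.42.0, Python 3.11.15, pandas 2.3.3 and scipy 1.17.1 were used.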

Additional observations from a re-analysis of the deposited data

How the results depend on the processing

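The number of members detected in both libraries was 30, and 17 at a limit of 2 TPM. It was 31 with replicate 1 alone and 43 with replicate 2 alone. Between 23 and 39 were detected at 0.5 TPM, in FPKM, in posterior mean TPM, without Col4a3bp and in transcripts of 1000 bases or more. The mean log2 ratio of basement membrane over fibrillar sums, -0.29, reversed to 0.33 on counts without length scaling, to 0.051 with Col7a1, Col15a1 and Col18a1 added, and to 0.52 without the highest gene of each class. It was -1.73 for type IV genes alone, and ran from -0.53 to -0.06 when either library was left out. FPKM (-0.30) had to give nearly the same value, since it is proportional to TPM within a library. The mean was also negative in posterior mean TPM (-0.14) and in transcripts of 1000 bases or more (-0.03). Single libraries did not all keep that sign. Posterior mean TPM gave -0.33 and 0.05, and transcripts of 1000 bases or more gave 0.06 and -0.11. Plain library totals raised the median log2 ratio between libraries to 1.66 for the members and from -0.0042 to 0.29 for all tested genes. A change of scaling shifts every gene alike, so the distance of 1.37 between these medians could not change. Members higher in replicate 1, 2 in number, became 0 under plain totals, 5 at a ratio of 1.5 and 0 at a ratio of 4. With GC correction, 9 members were higher in replicate 2 and 10 in replicate 1, with a median of -0.39. With read-weighted GC content these were 5, 15 and -0.38. Other filters, scalings and ratio limits gave 22 to 32 members higher in replicate 2. Of 47 named members, posterior mean TPM moved the mean level of 8 and the transcript limit that of 4 by more than the spread between libraries. Low counts limit the values of Lama5, Lamb3 and Lamb2 in replicate 1, with 7, 8 and 28 counts, although it is the deeper library. No paired analysis was possible because all samples form 1 group. The 6 chain pairs called different stayed 6 without length scaling.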
